A study of Mus musculus with 6 samples.

Results

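The genes described here encode 9 enzymes and enzyme subunits that add sugars to Notch receptors or cut them: Pofut1, the fringe genes Lfng, Mfng and Rfng, the sheddase genes Adam10 and Adam17, and the gamma-secretase genes Ncstn, Psen2 and Psenen. They were chosen by gene symbol, and all 9 were found among the 14472 rows of the authors' deposited table, each on a single row. The cells are of the mouse line mLPS1, labelled as dedifferentiated liposarcoma, a sarcoma that arises from cells related to fat. The genotype label is WT for 3 RNA-seq libraries and NICD Knockout for the other 3, where NICD stands for the intracellular domain of Notch. No treatment or time is labelled, each genotype is labelled as 1 cell line, and the labels do not say how the knockout was made or whether it is 1 clone. The title of the series mentions over-expression of Notch rather than a knockout, and the labels leave unsaid whether a Notch construct is present in the WT cells. Every change below is knockout over wild type, as the table's name gives it, and a log2 change is the log2 of that fold.

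A Notch receptor is decorated on its extracellular repeats while it passes through the secretory pathway. Pofut1 attaches O-fucose, and the fringe enzymes extend that fucose with N-acetylglucosamine, which shifts the receptor's preference between Delta and Jagged ligands. After ligand binding a sheddase, mainly Adam10 for ligand-driven cleavage and Adam17 in other settings, removes the extracellular part. Gamma-secretase, a membrane complex in which a presenilin is the catalytic subunit, Ncstn holds the substrate and Psenen activates the presenilin, then frees NICD. NICD is thus the product of these steps, and the comparison asks which of their transcripts differ between the lines.

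According to the authors' deposited table, the genes for both sheddases and for Pofut1 were lower in the knockout, by 1.42-fold to 1.86-fold. Mfng rose from a fitted level below 1 normalised count per library to 20.5, and Psen2 rose 1.64-fold. Lfng, Rfng, Ncstn and Psenen did not pass. Thus 5 of the 9 genes (55.6%) passed an adjusted p of 0.05, 2 higher and 3 lower, in a table where 50.5% of all 14470 tested genes passed, 25.4% higher and 25.1% lower. The share is near that background. The median log2 change of the 9 genes was 0.09, beside 0.02 over all tested genes, and Mfng was the 1 gene of the 9 that passed with a change of at least 2-fold, as 23.2% of all tested genes did.

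Promoter sequences are shown for the 3 genes that fell and for the 2 genes, Psen2, which rose, and Lfng, which did not pass, whose promoter held the core letters bound by Rbpj, the DNA-binding partner of NICD. The sequences are the 250 bases before the annotated start in RefSeq on GRCm38.p6, which matched 8 of the 9 genes with 10 start sites. Mfng was not among the 8, and its promoter was not searched. They were searched on both strands for GTGGGAA, which reads TTCCCAC on the other strand and is shown in capitals. That motif was in 2 of the 10 windows and in 5.42% of 32851 promoter windows of the same length.
Lfng promoter, chr5:140607091-140607340 on the plus strand: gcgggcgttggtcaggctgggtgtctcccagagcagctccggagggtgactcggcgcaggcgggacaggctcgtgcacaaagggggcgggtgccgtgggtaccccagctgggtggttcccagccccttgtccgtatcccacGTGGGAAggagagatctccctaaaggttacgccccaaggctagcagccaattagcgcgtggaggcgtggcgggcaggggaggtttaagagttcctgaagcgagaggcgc
Psen2 promoter at the inner start, chr1:180245951-180246200 on the minus strand: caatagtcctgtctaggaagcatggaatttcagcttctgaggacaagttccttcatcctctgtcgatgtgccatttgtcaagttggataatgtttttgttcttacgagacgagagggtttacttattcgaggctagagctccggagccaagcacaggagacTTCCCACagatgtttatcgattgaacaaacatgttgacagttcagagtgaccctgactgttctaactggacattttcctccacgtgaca
Pofut1 promoter, chr2:153241282-153241531 on the plus strand: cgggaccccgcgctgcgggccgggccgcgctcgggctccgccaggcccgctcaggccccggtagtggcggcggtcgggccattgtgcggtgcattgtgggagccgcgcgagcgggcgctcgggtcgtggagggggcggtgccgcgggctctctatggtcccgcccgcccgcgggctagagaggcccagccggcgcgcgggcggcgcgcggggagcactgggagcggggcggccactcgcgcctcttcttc
Adam10 promoter, chr9:70678732-70678981 on the plus strand: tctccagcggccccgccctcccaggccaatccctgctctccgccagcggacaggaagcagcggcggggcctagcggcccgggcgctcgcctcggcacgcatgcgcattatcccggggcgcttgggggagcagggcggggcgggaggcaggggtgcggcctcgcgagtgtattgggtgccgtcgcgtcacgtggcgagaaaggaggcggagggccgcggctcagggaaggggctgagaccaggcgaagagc
Adam17 promoter, chr12:21373633-21373882 on the minus strand: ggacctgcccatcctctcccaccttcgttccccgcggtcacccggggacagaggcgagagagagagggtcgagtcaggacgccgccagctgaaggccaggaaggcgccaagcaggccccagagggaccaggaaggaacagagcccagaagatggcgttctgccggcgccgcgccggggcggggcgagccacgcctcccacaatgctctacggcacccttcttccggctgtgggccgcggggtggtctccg
The match of Lfng begins 109 bases before its start, and that of Psen2, on the other strand, 89 bases before the inner of its 2 starts. The 3 promoters that are printed without capitals do not hold these letters in this window. A match describes letters and shows neither binding nor a cause. The 10 windows were rich in G and C, with a median of 64.6% beside 52.4% over all windows, and their median ratio of observed to expected CpG was 0.804, beside 0.374 over all windows.

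The table gives each gene 1 mean over libraries and 1 change with its standard error (SE) and no value for a single library, so the spread of a level within a group is not known. Levels in a group were fitted from that mean and the change, assuming 3 libraries in each group. Wild-type titles end in p35, p37 and p40 and knockout titles in p34, p36 and p39, with no word on what the p means. No number is shared between the groups. In each replicate the knockout number comes just before the wild-type number (34 and 35, 36 and 37, 39 and 40). The labels do not say whether this marks pairs, and pairing was not modelled here. The labels do not say whether the libraries came from separate cultures, and p-values may therefore reflect technical spread alone. The deposited means sum to 21033526, depth per library is unknown, and the median SE of the log2 change was 0.16 for genes with a mean of at least 100. Of the 6 mesenchymal markers examined, Vim, Col1a1, Pdgfrb and S100a4 had means between 8577 and 82338 by the authors' deposited table, Pdgfra had 103 and Col1a2 had 26.5. The summed fitted level of those 6 went from 149685 in wild type to 90275 in the knockout, with 3 members higher and 3 lower. Markers of other cell types were low except the lysosomal and macrophage gene Cd68, which rose 12.5-fold to 2238 by the authors' deposited table, while the pan-leukocyte gene Ptprc was at 8.73 and did not pass. The summed fitted level went from 183 to 2251 for the 2 tested of 3 macrophage markers, from 28.4 to 37.1 for 2 endothelial markers, and from 5.38 to 54.4 for the 1 tested of 3 epithelial markers. Their part in the changes below was not tested. In bulk RNA, fewer cells of a type and less RNA per cell cannot be told apart.

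**Figure D1:**
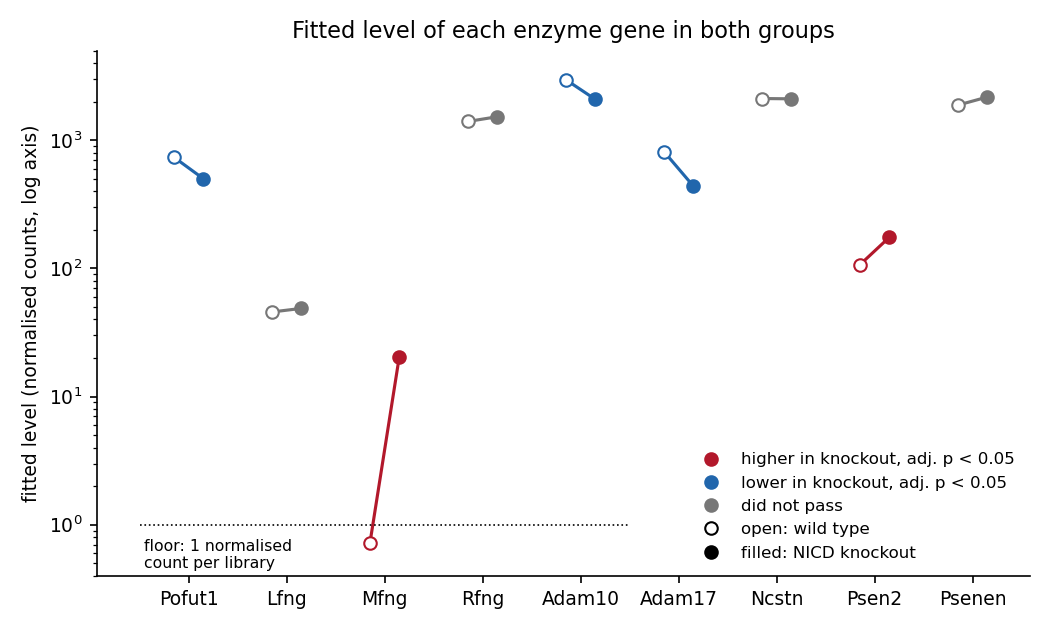
Fitted level in normalised counts (log axis) of each of the 9 genes in wild type (open points) and NICD knockout (filled points), coloured by the call at an adjusted p under 0.05, with a dotted line at 1 normalised count per library. Adam10, Ncstn, Psenen and Rfng sit above 1000 in both groups, and Mfng goes from 0.717 to 20.5.

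Levels of different genes were compared per length, as the deposited mean per kilobase of the longest coding transcript in GENCODE M21, a rough scale because the transcripts in use are not known. On it Psenen, the smallest subunit, was highest at 2867 per kilobase. Ncstn at 728, Rfng at 692 and Adam10 at 550 followed, then Adam17 at 140 and Pofut1 at 111. Psen2 at 69.8, Lfng at 20.5 and Mfng at 5.70 were the lowest. Among the fringe genes the order was thus Rfng, Lfng, Mfng, with Rfng at the 84.2 percentile of protein-coding genes, Lfng at 21.2 and Mfng at 12.1. The table holds no spread for these levels, so neighbours in the order, such as Ncstn and Rfng or Adam17 and Pofut1, cannot be ranked against each other.

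Pofut1 (ENSMUSG00000046020, chromosome 2), whose product adds O-fucose to Notch, had a fitted level of 738 in wild type and 502 in the knockout. It fell 1.47-fold by the authors' deposited table (log2 change -0.56, SE 0.16, 95% interval -0.87 to -0.25, DESeq2 adjusted p = 0.00129). Its 20 nearest expressed neighbours had a median of -0.26, with 8 lower and 3 higher. After that median was subtracted Pofut1 did not pass (log2 change -0.29, adjusted p = 0.114).

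The 3 fringe genes did not move together. Mfng (ENSMUSG00000018169, chromosome 15), the manic fringe, had a mean of 10.6 normalised counts by the authors' deposited table, with a fitted level of 0.717 in wild type and 20.5 in the knockout. Its log2 change was 4.84 (SE 1.35, 95% interval 2.19 to 7.48, DESeq2 adjusted p = 0.00107), and with wild type set at 1 normalised count per library (3 over the group) it was 4.36, or 20.5-fold. The size of this rise is loosely fixed: the interval runs from 4.58-fold to 179-fold, and the median SE of the 3991 genes with a mean under 100 was 0.77 by the authors' deposited table. Genes under a mean of 100 were in any case shifted upward, with a median log2 change of 0.60. Of the 20 neighbours of Mfng 19 had a smaller change, and the neighbour median was 0.25. The 1 neighbour with a larger change was Ncf4 (6.39), and the adjacent gene Card10, named like it after values were seen, had a log2 change of 4.36 by the authors' deposited table.

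Lfng (ENSMUSG00000029570, chromosome 5), the lunatic fringe, which in the embryo oscillates under Notch control, had fitted levels of 45.7 in wild type and 48.8 in the knockout. Its log2 change was 0.09 by the authors' deposited table (SE 0.33, 95% interval -0.55 to 0.73, DESeq2 adjusted p = 0.837). The interval allows a fall of up to 1.46-fold or a rise of up to 1.66-fold, so changes within those bounds are not excluded. Its promoter, printed above, holds the Rbpj motif. The window of Rfng does not hold it, and that of Mfng was not searched. Rfng (ENSMUSG00000025158, chromosome 11), the radical fringe, had the highest level of the 3, fitted at 1403 in wild type and 1528 in the knockout. Its log2 change was 0.12 by the authors' deposited table (SE 0.18, 95% interval -0.23 to 0.47, DESeq2 adjusted p = 0.594). The genes around Rfng did move: 15 of its 20 neighbours were higher and 2 lower, with a median log2 change of 0.81. Relative to that median, taken as free of error, Rfng was lower (log2 change -0.68, adjusted p = 4.88e-04).

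**Figure D2:**
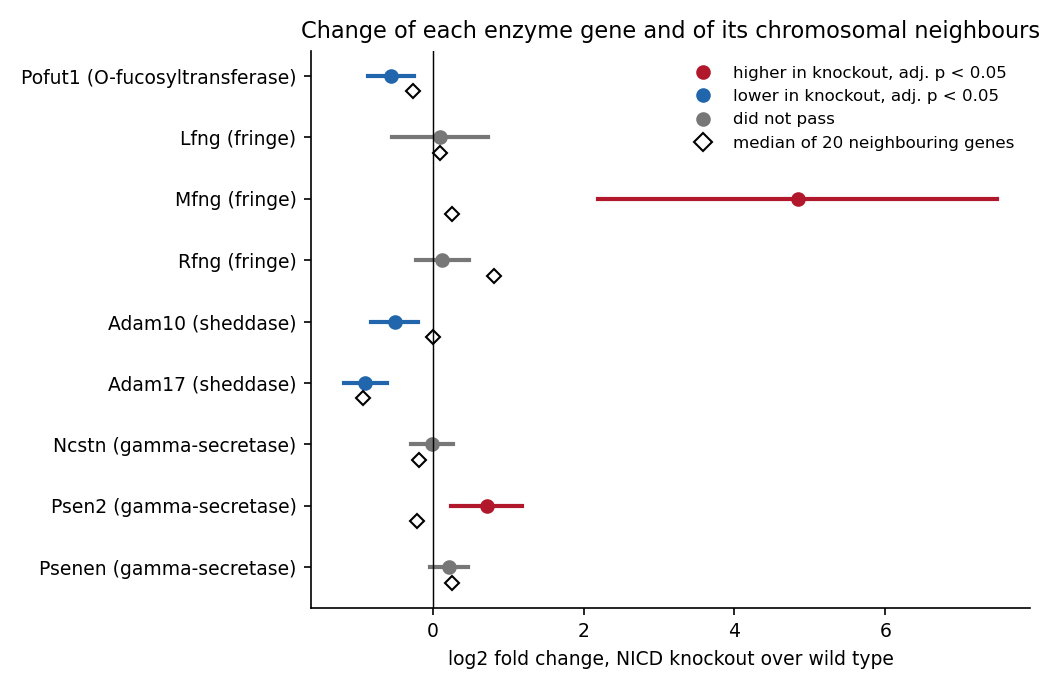
Log2 change, NICD knockout over wild type, of each of the 9 genes (points) with 95% Wald intervals (lines), coloured by the call at an adjusted p under 0.05, and the median change of the 20 neighbouring expressed genes (open diamonds). The interval of Mfng, 2.19 to 7.48, is the widest, and the diamond of Adam17 lies inside that gene's own interval while that of Rfng, at 0.81, lies above its interval.

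Both sheddase genes fell, and they sat in different surroundings. Adam10 (ENSMUSG00000054693, chromosome 9), which makes the ligand-dependent cut, had the highest mean over all libraries of the 9 genes, not per length, with fitted levels of 2969 in wild type and 2086 in the knockout, where Psenen and Ncstn were fitted slightly above it. It fell 1.42-fold by the authors' deposited table (log2 change -0.51, SE 0.16, 95% interval -0.82 to -0.20, DESeq2 adjusted p = 0.00369). Its 20 neighbours had a median log2 change of 0.01, and each of the 20 had a higher value than Adam10, which passed after their median was subtracted (log2 change -0.52, adjusted p = 0.00353).

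Adam17 (ENSMUSG00000052593, chromosome 12), the sheddase best known for releasing tumour necrosis factor and ligands of the epidermal growth factor receptor, had fitted levels of 817 in wild type and 439 in the knockout. It fell 1.86-fold by the authors' deposited table (log2 change -0.89, SE 0.15, 95% interval -1.18 to -0.61, DESeq2 adjusted p = 6.51e-09), the smallest p of the 9 genes. The genes around it had changes of like size. Of its 20 neighbours 15 were lower and 3 higher, the median was -0.93, and 10 lay below Adam17 and 10 above it. The nearest on either side, Iah1 and Ywhaq, had log2 changes of -1.32 and -0.80 by the authors' deposited table. With the neighbour median subtracted, the log2 change of Adam17 was 0.03 (adjusted p = 0.871). Over the 10310 expressed protein-coding genes the neighbour median ran from -0.58 at the 5th percentile to 0.45 at the 95th, so the surroundings of Adam17 lay below that range and those of Rfng above it. Iah1 is annotated on the opposite strand with 311 exon bases shared with Adam17 (4.35% of the exon bases of Adam17), and the sources used here do not give how strand was treated in counting. The 3 neighbours that rose, Id2, Rsad2 and Cmpk2, stand together in the gene order, and Rsad2 and Cmpk2 are interferon-inducible genes with log2 changes of 8.04 and 7.21 by the authors' deposited table. The 95% intervals of Adam10 and Adam17 overlap, so their falls are not told apart in size.

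**Figure D3:**
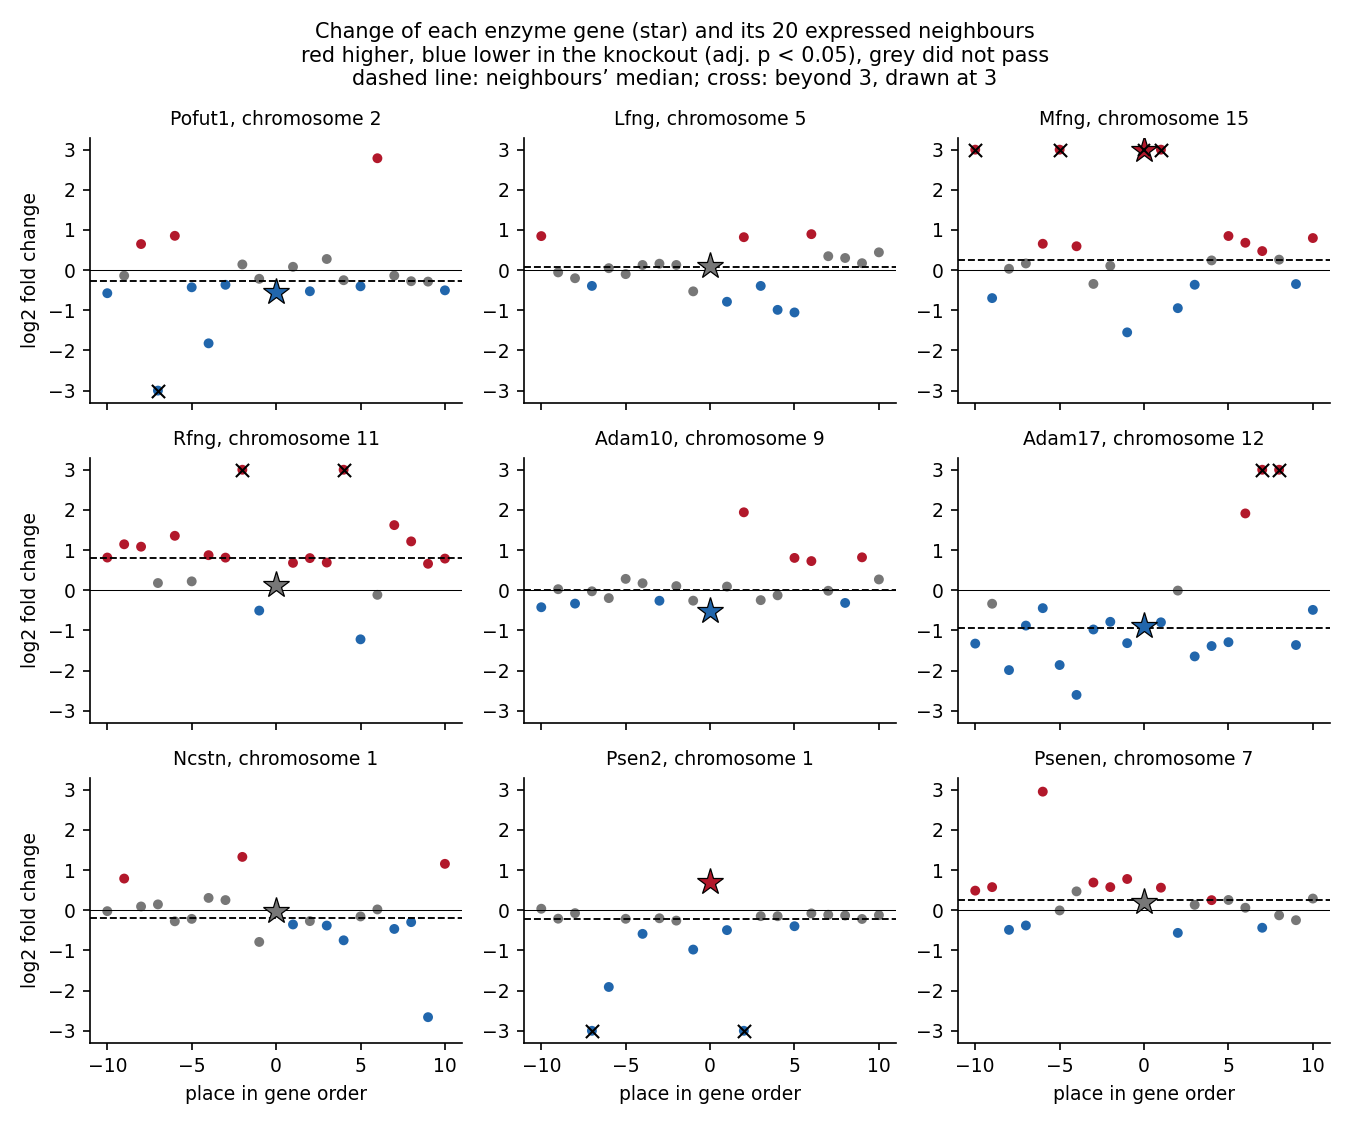
Log2 change of each of the 9 genes (star) and of its 10 expressed protein-coding neighbours on each side in gene order (points), coloured by call, with the neighbour median as a dashed line and changes beyond 3 drawn at 3 with a cross. Around Adam17, 15 of 20 neighbours were lower, around Rfng, 15 of 20 were higher, and Psen2 lies above each of its 20 neighbours.

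Of the 3 gamma-secretase genes among the 9, Ncstn and Psenen did not pass. Ncstn (ENSMUSG00000003458, chromosome 1), the nicastrin gene, had fitted levels of 2119 in wild type and 2107 in the knockout. Its log2 change was -0.01 by the authors' deposited table (SE 0.14, 95% interval -0.28 to 0.27, DESeq2 adjusted p = 0.968). Its sign turns when changes are centred on expressed genes (0.04) or on its neighbours, and it passed under neither. Psenen (ENSMUSG00000036835, chromosome 7), the Pen-2 gene, had fitted levels of 1882 and 2177, with a log2 change of 0.21 by the authors' deposited table (SE 0.13, 95% interval -0.04 to 0.46, DESeq2 adjusted p = 0.169). For both genes the interval excludes a change of 1.5-fold in either direction. Exons of Ncstn share 195 bases (4.91%) with the opposite-strand gene Copa, and those of Psenen share 119 bases (9.33%) with U2af1l4, which rose with a log2 change of 0.56 by the authors' deposited table.

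Psen2 (ENSMUSG00000010609, chromosome 1), which encodes presenilin-2, a catalytic subunit that resides mainly in late endosomes and lysosomes, rose. Its fitted level went from 107 in wild type to 175 in the knockout, 1.64-fold by the authors' deposited table (log2 change 0.71, SE 0.24, 95% interval 0.24 to 1.18, DESeq2 adjusted p = 0.00729). Each of its 20 neighbours had a lower value, 7 of them lower in the knockout and 13 that did not pass, with a median of -0.21. Relative to them the log2 change of Psen2 was 0.92 (adjusted p = 4.23e-04). When the test was whether a change exceeds 1.5-fold, Mfng alone of the 9 genes passed (adjusted p = 0.0109), and with Bonferroni adjustment over all genes Adam17 alone did. Mfng was not tested when genes with a mean under 100 were left out.

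**Figure D4:**
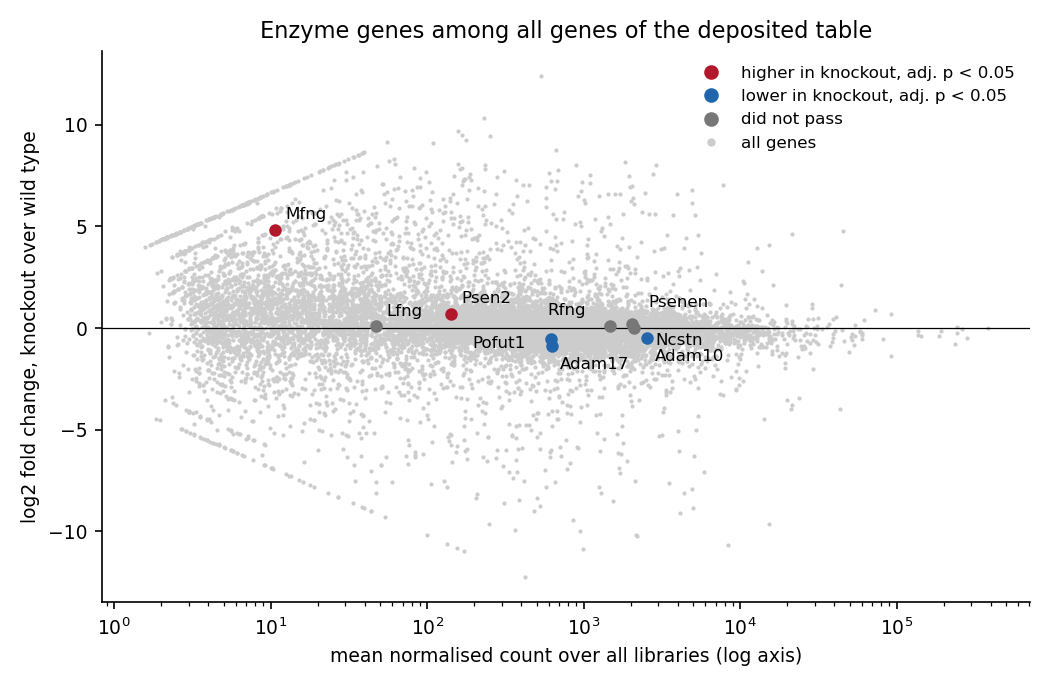
Log2 change, knockout over wild type, against the mean normalised count over all libraries (log axis) for every gene of the deposited table (grey), with the 9 genes coloured by call. Mfng lies at a mean of 10.6, where changes of all genes spread widely, and the other 8 lie within 1 log2 unit of 0.

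The absolute change of Mfng exceeded that of 95.8% of all tested genes. Adam17 followed at the 67.9 percentile, Psen2 at 60.6, Pofut1 at 52.2 and Adam10 at 49.1 in the same ranking. The 4 genes that did not pass lay between the 0.850 and 23.6 percentiles. The falls of Pofut1 and Adam10 were thus of a size that about as many genes of this whole table exceeded as did not reach. That ranking pools all levels, and the 3991 genes under a mean of 100 had a median absolute log2 change of 1.28. For genes between 100 and 1000, the range of Pofut1 (-0.56), this median was 0.43. From 1000 upward, the range of Adam10 (-0.51), the median was 0.37. Both falls were thus larger than the median for genes of like level.

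Of 8 other enzymes that act on Notch sugars, 5 fell and 1 rose by the authors' deposited table, and the median of the 8 was -0.40, in a table where 50.5% of tested genes passed. The 1 that rose was Gxylt2, which adds xylose to O-glucose on Notch repeats: its fitted level went from 6.67 in wild type to 886 in the knockout, 133-fold by the authors' deposited table (log2 change 7.05, SE 0.35, DESeq2 adjusted p = 2.10e-87), where its neighbours had a median of -0.41. Its paralog Gxylt1, with the same reaction, fell with a log2 change of -0.43 by the authors' deposited table, from 1669 to 1236. Eogt, which adds O-linked N-acetylglucosamine, fell with a log2 change of -0.77 by the authors' deposited table, where its neighbours had a median of -0.65. The O-glucosyltransferase genes Poglut2 and Poglut3 and the galactosyltransferase gene B4galt1 fell with log2 changes of -0.64, -0.59 and -0.37 by the authors' deposited table. Poglut1 and Xxylt1 did not pass, at -0.14 and -0.18. With the neighbours' medians subtracted, 4 of the 8 passed, 1 higher and 3 lower, where 47.4% of all genes passed.

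Enzymes and transporters that supply GDP-fucose, the donor for Pofut1, had 2 of 6 genes higher by the authors' deposited table and 4 that did not pass (33.3% called, beside 50.5% of all tested genes, median 0.08). Gfus, which completes GDP-fucose synthesis, rose with a log2 change of 0.74 by the authors' deposited table (SE 0.11, DESeq2 adjusted p = 1.90e-11), where its neighbours had a median of 0.60. Fcsk, the fucose salvage kinase gene, rose with a log2 change of 0.58 by the authors' deposited table (DESeq2 adjusted p = 0.0310). The Golgi transporter genes Slc35c1 and Slc35c2 did not pass, at -0.23 each.

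Partners and inhibitors of the sheddases had 6 of 10 tested genes lower and 2 higher by the authors' deposited table (80.0% called, beside 50.5% of all tested genes, median -0.35). Timp3, an inhibitor of Adam17, fell 17.6-fold by the authors' deposited table, fitted at 6084 in wild type and 346 in the knockout, and Timp1, an inhibitor of Adam10, fell 1.79-fold. Rhbdf2, which escorts Adam17 to the cell surface, rose 2.65-fold by the authors' deposited table (log2 change 1.41, SE 0.16, DESeq2 adjusted p = 1.25e-16), while Frmd8, which stabilises that complex, fell with a log2 change of -0.36. Tspan17 and Tspan14, tetraspanins that carry Adam10, fell with log2 changes of -1.14 and -0.72 by the authors' deposited table. The other tetraspanin genes of that list were not called lower as deposited. Tspan15, at a mean of 43.4, rose with a log2 change of 1.03 (DESeq2 adjusted p = 0.0261). Tspan5 and Tspan33 did not pass, at -0.28 and -0.14. Rhbdf1, the last tested gene of that list, fell with a log2 change of -0.33. Furin, the convertase that trims Notch receptors and the sheddases to their mature forms, fell 2.62-fold by the authors' deposited table (log2 change -1.39, SE 0.12, DESeq2 adjusted p = 2.40e-28), and Pcsk7 fell with a log2 change of -0.39.

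Among the Aph1 genes, which encode a further gamma-secretase subunit, 1 of 3 was higher by the authors' deposited table and 2 did not pass (33.3% called, beside 50.5% of all tested genes, median -0.05). Aph1c, at a mean of 15.4 by the authors' deposited table, rose with a log2 change of 2.13 (SE 0.89, DESeq2 adjusted p = 0.0342). Aph1a and Aph1b did not pass, at -0.05 and -0.30, and made up most of the Aph1 RNA, with means of 2105 and 333. Aph1b and Aph1c are close copies that can share reads, so their split is uncertain. Of the substrates and their ligands, 4 of 7 tested genes fell by the authors' deposited table and 3 did not pass (57.1% called, near the 50.5% of all tested genes, median -1.28). Those that fell were Jag1, Notch3, Notch1 and Notch4, with log2 changes of -5.30, -4.99, -1.78 and -1.28. The interval of Adam17, -1.18 to -0.61, overlaps that of Notch4, -1.80 to -0.76, and lies above those of the other 3. With the neighbours' medians subtracted, Eogt, Gxylt1, Gfus, Frmd8, Rhbdf1 and Pcsk7 no longer passed, and Tspan5, which had not passed as deposited, did (log2 change -0.59, adjusted p = 8.89e-05).

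**Figure D5:**
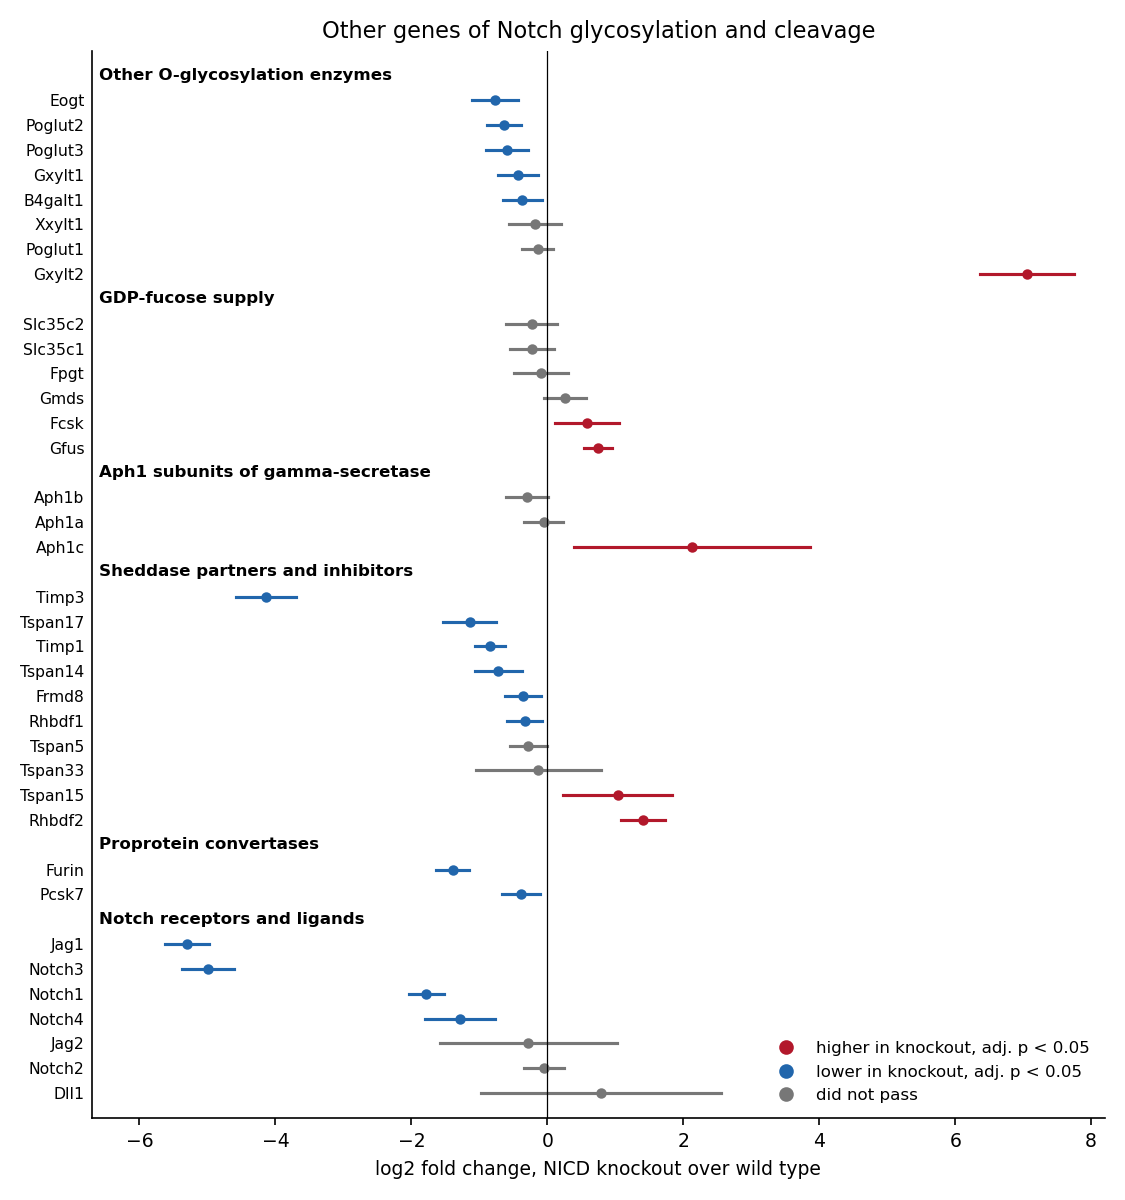
Log2 change, NICD knockout over wild type, with 95% Wald intervals for the other genes of Notch glycosylation and cleavage, by list, coloured by the call at an adjusted p under 0.05. Gxylt2 stands at 7.05 on the right, and Jag1, Notch3 and Timp3 stand between -5.30 and -4.14 on the left.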

How the data were processed

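Libraries were grouped by their genotype labels. Salmon, DESeq2 and the build mm39 are named by the submitters' processing notes with no versions, order or settings. Per the file headers, the authors deposited per gene a mean of normalised counts (a signal that is never negative), a log2 fold change and its standard error, a Wald statistic (a score), a p-value and an adjusted p. Recomputing the last 3 differed by at most 1.56e-13, and 2 rows have no p. Calls are from the authors' DESeq2 test at an adjusted p under 0.05. Without values of single libraries edgeR could not be run.

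Intervals are 95% Wald intervals (1.96 standard errors). A floor of 3 normalised counts over a group was used for folds. Neighbour medians used 10 protein-coding genes (mean at least 100) on each side in the gene order of GENCODE M21 on GRCm38, matched for 14456 rows (99.9%), and were treated as free of error. As the authors' build is mm39, coordinates are printed for the RefSeq promoters alone, on their own build. Adjusted p-values after neighbour subtraction, centring or against a 1.5-fold change come from the same Wald test, adjusted by Benjamini-Hochberg over all genes. The steps were tested on simulated data.

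The 9 genes and the context lists were chosen with earlier results of these data known. All 9 are named, and from each list the genes that passed, or the 6 with the smallest p where more did. In the list of sheddase partners and inhibitors the other tested genes are named too. Some genes of the other lists that did not pass are also named, outside that rule. With 1 comparison, genes of like pattern could not be ranked. A withheld item is not reported here. Alternatives were a threshold of 0.01, Bonferroni adjustment, minimum means of 10 and 100, the 1.5-fold test, centring and neighbour subtraction. Python 3.11.15, numpy 2.4.6, pandas 2.3.3, scipy 1.17.1 and matplotlib 3.10.9 were used.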

Additional observations from a re-analysis of the deposited data

How the results depend on the processing

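Of 9 genes 5 passed as deposited, 2 higher and 3 lower. With Bonferroni adjustment 1 passed, 0 higher and 1 lower, among 3175 of all genes rather than 7303. Against a change of 1.5-fold 1 passed, 1 higher and 0 lower, among 2567 of all genes. With a minimum mean of 100, 1 higher gene passed, and Mfng was not tested. The count was within 1.5 times of 5 under the other alternatives. With neighbours subtracted 4 passed, among 6846 of 14453 genes (47.4%), but they were not the same genes. Pofut1 and Adam17 no longer passed, and Rfng, which had not passed as deposited, did so as lower. Ncstn turned to 0.0417 after centring on expressed genes. With neighbours subtracted, the log2 changes of Rfng, Adam17, Ncstn and Psenen turned to -0.68, 0.0343, 0.175 and -0.0453. Of 61 values of single genes under alternatives, 47 kept their direction and their side of the threshold, 9 kept direction and lost the call, and 5 turned. No paired analysis was possible because the deposited values are of 1 comparison, and for the same reason leaving out replicates was not run. Depth per library is unknown. The low means of Lfng and Mfng limit what their values can show.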

Other observations

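Related proteases and fucosyltransferases outside the Notch lists were examined in lists drawn up after the data had been seen, and they are reported as values. Of 10 tested intramembrane and other membrane-protein proteases, 1 was higher and 2 lower by the authors' deposited table (30.0% called, beside 50.5% of all genes), with a median log2 change of 0.04. Rhbdl2, a rhomboid protease of the cell surface, rose 10.8-fold by the authors' deposited table, fitted at 38.6 in wild type and 416 in the knockout (log2 change 3.43, SE 0.26, DESeq2 adjusted p = 3.59e-39). Bace1, the beta-secretase gene, fell 1.78-fold by the authors' deposited table, and Sppl3, an intramembrane protease that sheds Golgi glycosyltransferases, fell with a log2 change of -0.34. Sppl2a and Sppl2b, which clear membrane stubs left by sheddases, did not pass, at 0.06 and -0.10. With the neighbours' medians subtracted, Sppl3 no longer passed (-0.15, adjusted p = 0.236), while Sppl2a (0.60, adjusted p = 2.35e-04) and the mitochondrial rhomboid gene Parl (0.58, adjusted p = 9.62e-04) did.

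Of 5 other membrane-anchored ADAM genes tested, 3 fell by the authors' deposited table and 2 did not pass (60.0% called, beside 50.5% of all tested genes). Adam12 fell 35.2-fold and Adam19 fell 18.0-fold by the authors' deposited table, from fitted levels of 402 to 11.4 and of 1486 to 82.7, and Adam9 fell 1.29-fold. Adam9 no longer passed with its neighbours' median subtracted (-0.32, adjusted p = 0.0593). Adam15 and Adam8 did not pass, at -0.02 and 0.12. Pofut2, the counterpart of Pofut1 that puts O-fucose on thrombospondin repeats, fell 2.24-fold by the authors' deposited table (log2 change -1.17, SE 0.13, DESeq2 adjusted p = 3.40e-19), and B3glct, which extends that fucose with glucose, did not pass, at 0.15.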
